A study of Mus musculus with 16 samples.

Results

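Oxidative phosphorylation is carried out in the inner mitochondrial membrane by 5 enzyme complexes. Complex I (NADH dehydrogenase) and complex II (succinate dehydrogenase) pass electrons to ubiquinone, complex III (cytochrome bc1) passes them to cytochrome c, and complex IV (cytochrome c oxidase) passes them to oxygen. Complexes I, III and IV pump protons across the membrane, and complex V (ATP synthase) uses the gradient to make ATP. Most subunits are encoded in the nucleus, and a few by the mitochondrial genome. Pluripotent stem cells are known for a strong reliance on glycolysis, and the respiratory chain is known to be remodelled during reprogramming.

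The genes described here were chosen by name from the expression table, as every row whose symbol starts with Nduf, Uqcr, Cox4 to Cox8 or Atp5, or is Sdha, Sdhb, Sdhc or Sdhd. The rule found 90 of 22552 genes, 42 for complex I, 4 for complex II, 8 for complex III, 19 for complex IV and 17 for complex V. It does not use the measured values. Of the 90, 7 names belong to assembly factors or other proteins that are not themselves subunits, namely Ndufaf1, Ndufaf2, Ndufaf3, Ndufaf4, Cox4nb, Atp5s and Atp5sl. Ndufa4 is counted under complex I by its name, although its product is now assigned to complex IV. Genes of the mitochondrial genome are not analysed here.

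RNA-seq was performed on 16 mouse pluripotent lines of the strain 129-M2rtTA, with 1 library per line. AN lines are nuclear transfer embryonic stem cells (ntESCs) derived from adipocyte progenitor cells (APCs), and AI lines are induced pluripotent stem cells (iPSCs) derived from APCs by doxycycline-induced factors. Per the study's text, ntESC and iPSC lines of this secondary system share their genomic insertion. The oocytes for nuclear transfer came from B6D2F1 females, so AN and AI lines also differ in the use of these oocytes. The part of this in the AN against AI comparison was not tested. By tetraploid complementation, which tests whether injected cells can form a whole animal, the study divided them into fully (F) and partially (P) reprogrammed lines, giving 4 AN F lines, 5 AN P lines, 4 AI F lines and 3 AI P lines. The labels give only the line and the cell type, so F and P were assigned by line name from the study's text. The AN lines were at passages 5 to 7. The AI F lines AI3, AI7 and AI10 and the AI P line AI9 were at passage 7, and 3 AI lines that had been derived earlier, GS32 (AI F), GS4 (AI P) and GS9 (AI P), were at passages 13, 17 and 6. The source entries of GS9 and GS32 name GS4, and the lines were taken by title. With 1 library for each line, p-values measure the spread between lines and not between repeated cultures of a line.

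Values are FPKM, a read density scaled to the length of the transcript and to the size of the library, and differences are on the scale of log2(FPKM + 1). The number of reads is not given. From the steps between low values, the depth of the 15 other libraries was 0.963 to 1.26 times that of AN1. The sum of FPKM ran from 661973 in AI3 to 963434 in GS9, and the share of short non-coding RNA genes in it ran from 15.8% to 28.1%. Pou5f1 (Oct4), which marks pluripotent cells, was at 615 to 1222 FPKM in every line. The summed level of 14 fibroblast markers, which feeder cells express, ran from 863 to 2164 FPKM in 14 lines and was 509 in GS4 and 627 in GS9. These 2 AI P lines stood apart from the others in many of the genes described here, and the medians and leading members of the AI results are given with and without them.

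The genes of the 5 complexes were expressed at high levels in every group. The median of the mean FPKM over the 87 members that passed the filter of a mean of 0.5 FPKM was 127, against 8.98 over all 13185 genes that passed it. Of the 90 members, 59 were among the top 10% of those 13185 genes and 52 had a mean FPKM of at least 100. The 7 members under a mean of 5 FPKM were Ndufa4l2, Atp5s, Cox4i2, Cox7b2, Cox6a2, Cox8b and Cox8c, and the last 3 did not pass the filter. Most of these 7 genes are isoforms that are known from particular tissues.

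**Figure D1:**
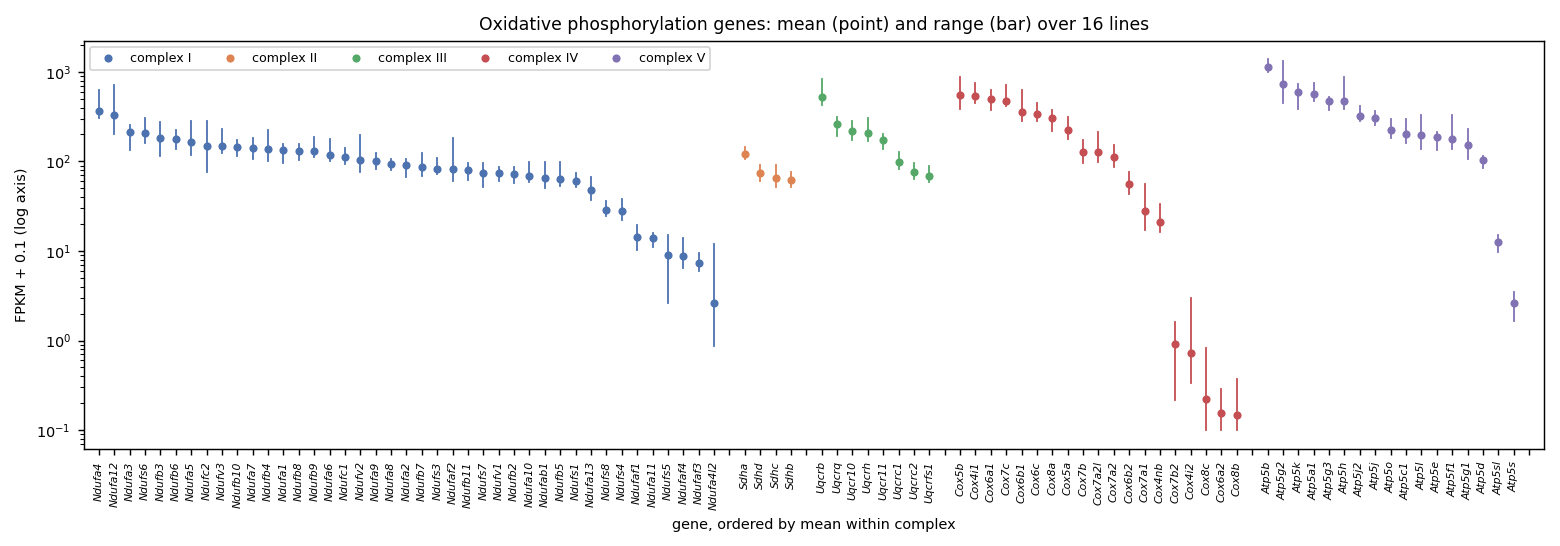
Mean FPKM (points) and lowest to highest value over the 16 lines (bars) of the genes by complex, on a log axis with 0.1 added. The highest was Atp5b with a mean of 1132 FPKM and the lowest Cox8b with a mean of 0.047 FPKM.

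In complex I the level per length was highest for Ndufa4, at 307 to 623 FPKM, and lowest for its paralog Ndufa4l2, at 0.763 to 11.8 FPKM. Among the core subunits, Ndufv1, which holds the FMN cofactor, was at 60.7 to 86.2 FPKM, while Ndufs8 was at 24.7 to 35.9 FPKM. The accessory subunit genes Ndufs5, at 2.53 to 15.1 FPKM, and Ndufa11, at 11.0 to 15.8 FPKM, were the subunit genes of this complex with the lowest means apart from Ndufa4l2. Members of 1 complex differed widely in mRNA level, although most complex I subunits are present in it as a single copy.

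The 4 genes of complex II were the closest to each other in level. Sdha, the flavoprotein that oxidizes succinate, was highest at 105 to 147 FPKM. Sdhb, the iron-sulfur subunit, was at 51.7 to 75.5 FPKM, and the membrane anchors Sdhc and Sdhd were at 51.7 to 90.9 and 60.6 to 90.3 FPKM. The ranges of Sdhb, Sdhc and Sdhd overlapped, and the lowest Sdha value was above the highest value of each of the other genes. No Sdh gene had an unadjusted p below the threshold of 0.05 between F and P lines, where the log2 difference of Sdha was -0.053 ± 0.061 (SE) in AN and -0.057 ± 0.13 in AI, and that of Sdhb was 0.037 ± 0.080 and -0.27 ± 0.12.

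In complex III Uqcrb, a small subunit at the ubiquinone site, was highest at 428 to 825 FPKM, and the Rieske iron-sulfur protein gene Uqcrfs1 was lowest at 58.8 to 88.2 FPKM. The core protein genes Uqcrc1 and Uqcrc2 were at 82.3 to 126 and 63.7 to 95.4 FPKM. In complex IV, Cox5b was highest at 390 to 882 FPKM, followed by Cox4i1 at 447 to 748 FPKM and Cox6a1 at 372 to 630 FPKM. The ranges of these 3 genes overlapped.

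In complex V Atp5b, the catalytic beta subunit, was at 989 to 1384 FPKM and was the highest of all 90 genes in every line. Its values were 1066, 1119, 1129 and 1008 FPKM in AN F, 1153, 1076, 1132, 1141 and 1215 in AN P, 1069, 1171, 1020 and 989 in AI F, and 1078 (AI9), 1384 (GS4) and 1365 (GS9) in AI P. The alpha subunit gene Atp5a1 was lower, at 479 to 757 FPKM, although both subunits are present in equal number in the enzyme. The delta subunit gene Atp5d, at 84.1 to 116 FPKM, had the lowest mean of the genes that encode ATP synthase subunits.

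Several subunits are encoded by more than 1 gene, and the lines used the widely expressed isoform. Cox4i2, known from lung and hypoxia, was 0.045% to 0.39% of the sum of Cox4i1 and Cox4i2. Cox7b2 was 0.11% to 1.0% of the sum with Cox7b, and Ndufa4l2, a hypoxia-inducible paralog, 0.25% to 3.0% of the sum with Ndufa4. The heart and muscle isoforms Cox6a2 and Cox8b were listed at 0 to 0.187 and 0 to 0.267 FPKM, and Cox8c, known from testis, at 0 to 0.717 FPKM. These 3 genes were tested only by exact permutation tests, whose unadjusted two-sided p ran from 0.27 to 1.

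For 2 other tissue isoforms the share was not small. Cox6b2, known from testis, was 9.1% to 16.2% of the sum with Cox6b1, at 42.8 to 76.4 FPKM. Cox7a1, the heart and muscle isoform of subunit 7a, was 13.7% (AN20) to 32.2% (GS4) of the sum with Cox7a2, while the summed level of 5 heart and muscle markers was 3.4 to 9.8 FPKM. The values of Cox7a1 were 24.0, 26.6, 28.8 and 20.6 FPKM in AN F, 34.6, 26.6, 28.3, 34.1 and 26.5 in AN P, 21.9, 25.0, 20.2 and 17.1 in AI F, and 22.8 (AI9), 56.1 (GS4) and 28.1 (GS9) in AI P. GS4 was the highest line, and every AI F line but AI7 was below every AI P line.

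**Figure D2:**
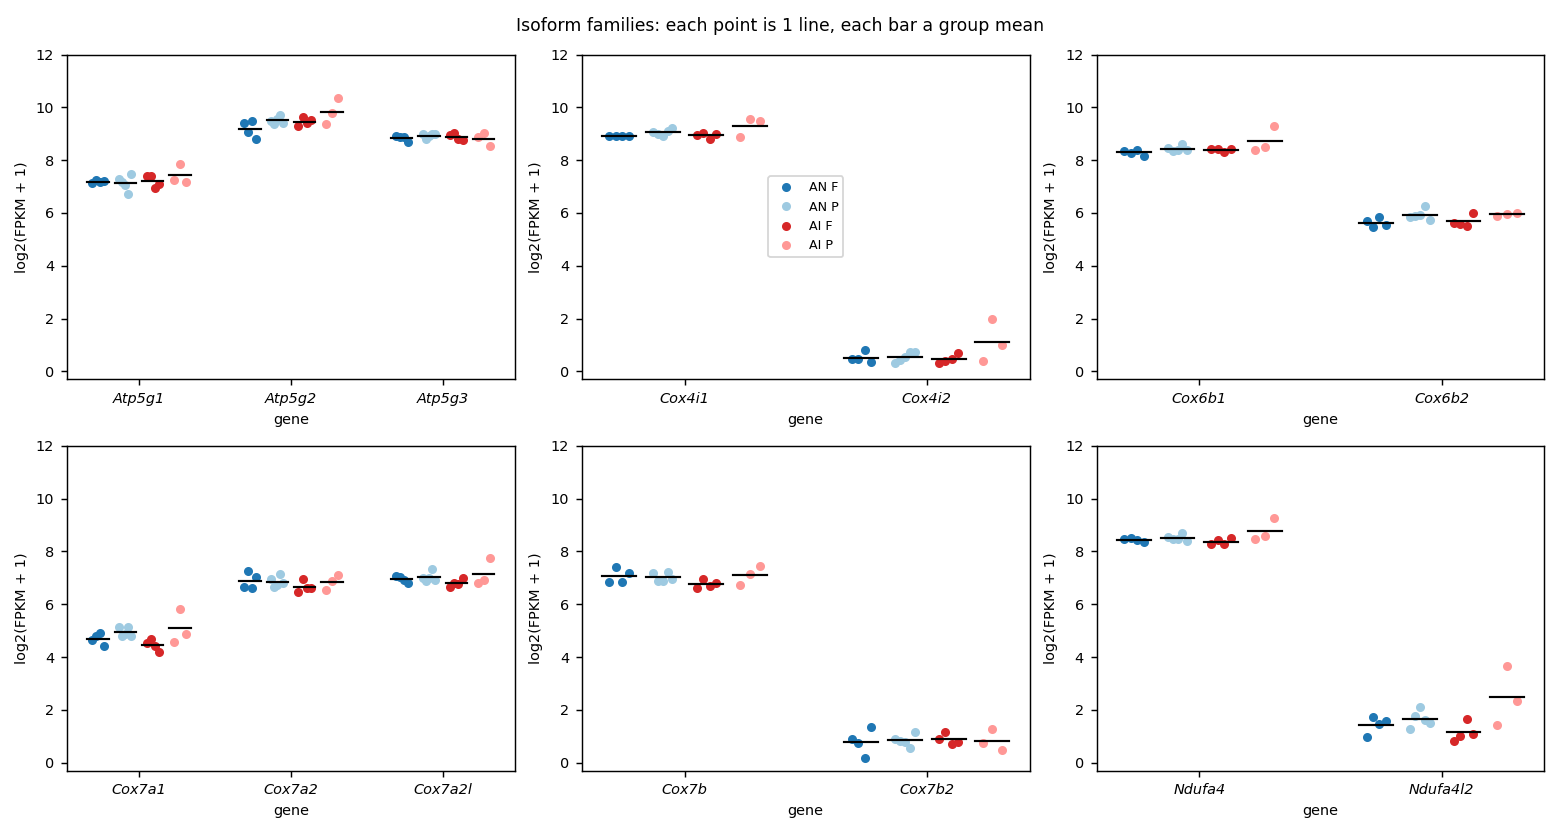
Level of the isoform families as log2(FPKM + 1) in each line (points) with group means (bars). Cox4i2, Cox7b2 and Ndufa4l2 lie far below their partners, while Cox6b2 and Cox7a1 lie closer to theirs, and the high AI P points of Cox4i2, Cox7a1 and Ndufa4l2 are GS4.

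The c subunit, which forms the rotating ring of the ATP synthase, is made from 3 genes whose mature products are identical. Atp5g2 gave the largest share of their summed level in every line, 44.1% (AN20) to 71.7% (GS9), Atp5g3 gave 20.4% (GS9) to 41.4% (AN20) and Atp5g1 gave 7.3% (AN6) to 14.6% (AN20). Atp5g2 was at 683, 539, 708 and 444 FPKM in AN F, 723, 668, 746, 839 and 685 in AN P, 634, 798, 676 and 725 in AI F, and 657 (AI9), 872 (GS4) and 1311 (GS9) in AI P. Atp5g3 was at 478, 476, 471 and 417 FPKM in AN F, 506, 444, 479, 505 and 511 in AN P, 489, 520, 447 and 429 in AI F, and 468 (AI9), 520 (GS4) and 373 (GS9) in AI P. GS9 thus held the highest Atp5g2 value and the lowest Atp5g3 value of all 16 lines. The coding sequence of Atp5g2 has 3 further copies elsewhere in mm9 at up to 100% identity, so reads of 50 bases can be shared with them.

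The 250 bases before the start of these 3 genes, and of the Cox6b pair, are shown because they are the promoters of isoforms whose levels differ within a family. They are from the RefSeq promoter table, in GRCm38.p6, on the minus strand and written 5′ to 3′ in the direction of the gene. Atp5g1 lies at chr11:96075632-96075881, Atp5g2 at chr15:102671048-102671297, Atp5g3 at chr2:73911327-73911576, Cox6b1 at chr7:30626115-30626364 and Cox6b2 at chr7:4753095-4753344. Capitals mark matches to the motifs of the next paragraph.
Atp5g1: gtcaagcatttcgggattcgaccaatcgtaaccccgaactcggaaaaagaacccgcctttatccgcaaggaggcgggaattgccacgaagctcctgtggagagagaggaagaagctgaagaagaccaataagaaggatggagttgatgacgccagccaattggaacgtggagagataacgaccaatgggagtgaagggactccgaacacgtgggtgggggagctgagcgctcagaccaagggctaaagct
Atp5g2: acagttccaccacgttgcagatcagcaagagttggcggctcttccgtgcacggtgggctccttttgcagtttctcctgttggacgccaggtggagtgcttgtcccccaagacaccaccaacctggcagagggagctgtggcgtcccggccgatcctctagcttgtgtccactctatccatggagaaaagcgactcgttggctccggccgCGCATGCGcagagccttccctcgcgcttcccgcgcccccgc
Atp5g3: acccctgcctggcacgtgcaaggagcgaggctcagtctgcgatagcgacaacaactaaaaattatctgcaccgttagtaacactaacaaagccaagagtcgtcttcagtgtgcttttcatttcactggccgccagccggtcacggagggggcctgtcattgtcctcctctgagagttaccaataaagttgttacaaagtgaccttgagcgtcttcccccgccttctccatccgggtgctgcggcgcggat
Cox6b1: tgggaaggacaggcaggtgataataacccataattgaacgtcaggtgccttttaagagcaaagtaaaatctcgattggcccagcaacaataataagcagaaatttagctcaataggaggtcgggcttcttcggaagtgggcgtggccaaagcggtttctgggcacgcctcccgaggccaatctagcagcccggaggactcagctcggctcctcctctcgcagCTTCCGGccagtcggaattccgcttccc
Cox6b2: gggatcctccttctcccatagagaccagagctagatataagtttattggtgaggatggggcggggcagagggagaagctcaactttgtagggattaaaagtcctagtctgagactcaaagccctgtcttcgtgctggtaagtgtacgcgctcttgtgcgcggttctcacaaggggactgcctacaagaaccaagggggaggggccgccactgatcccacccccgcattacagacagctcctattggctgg

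Motifs of factors known to act on respiratory genes were searched on both strands of windows of 250 bases before to 50 bases after the start. Of the 90 members, 71 matched the table by symbol, with 76 windows. The NRF1 core CGCATGCG was in 13.2% of the member windows and 1.87% of all 32851 windows, in Atp5g2, Atp5j, Atp5k, Atp5l, Cox6a1, Ndufa11, Ndufa8, Ndufaf4, Uqcr11 and Uqcrc1. The GABP motif CCGGAAG was in 22.4% and 8.86%, the YY1 motif GATGGCG in 14.5% and 3.49%, and the CRE motif TGACGTCA in 5.26% and 1.79%. In the printed sequences, Atp5g2 held the NRF1 core and Cox6b1 the reverse complement of the GABP motif, and no searched motif was in Atp5g1, Atp5g3 or Cox6b2 upstream of the start. A match describes letters and is not shown to be a bound site.

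Across the 16 lines the members varied about as much as other genes. The median SD of log2(FPKM + 1) over the lines was 0.204 for the 87 tested members, 0.212 for all tested genes and 0.209 for the 1910 genes with a mean log2 level of at least that of 50 FPKM. The most variable were Ndufa4l2 (0.68), Ndufs5 (0.58), Ndufa12 (0.43), Cox4i2 (0.41) and Ndufc2 (0.38), and the least variable complex was complex II with a median SD of 0.15. The median correlation over the lines between 2 members was 0.40 over 3741 pairs, against 0.0041 between 2 tested genes. Without GS4 and GS9 the median between members was 0.28 over 14 lines. Points of a line share a library, its depth and its composition, so these correlations are descriptions.

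Some lines departed from the others in many members at once. In GS9, 71 of 87 members were above their mean over the 16 lines, with a median deviation of 0.34 on the log2 scale, and in GS4 78 were, with a median of 0.17. In the third AI P line, AI9, 12 were above their mean with a median of -0.12. The AI F lines had medians of -0.15 (AI10) to 0.011 (AI7), the AN F lines -0.13 (AN20) to 0.052 (AN9) and the AN P lines -0.059 (AN3) to 0.11 (AN6). For all tested genes the median deviation of a line was between -0.048 and 0.021. GS9 held the highest value of 46 members and GS4 that of 20, and AN20 held the lowest value of 25 members.

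**Figure D3:**
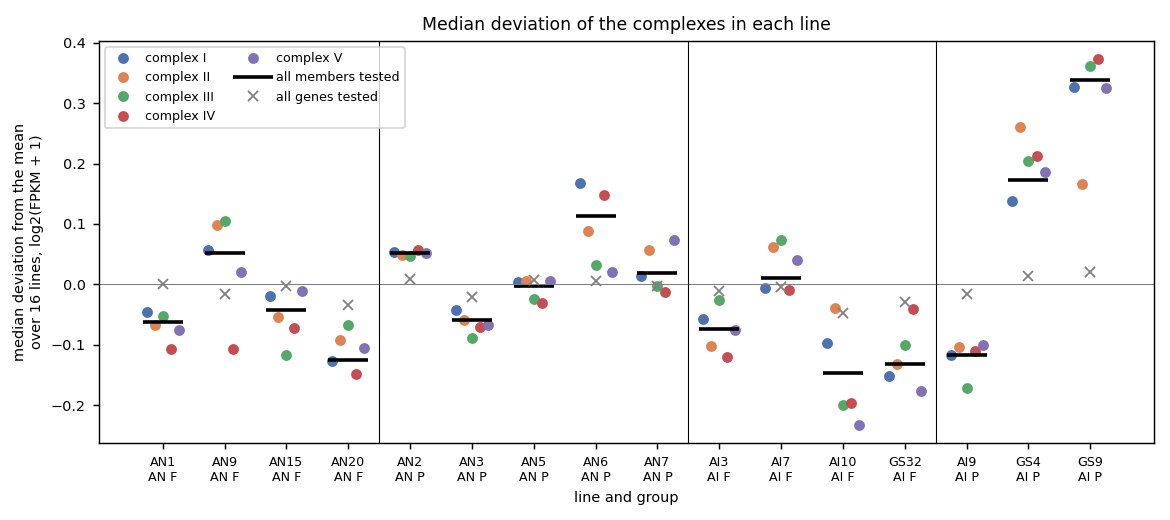
Median deviation of each complex (points), of all 87 members (black bars) and of all tested genes (crosses) in each line, as log2(FPKM + 1) minus the mean of the gene over the 16 lines. GS4 and GS9 lie above the other lines, with member medians of 0.17 and 0.34, and AI9, the remaining AI P line, lies at -0.12 with the AI F lines.

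In GS9 the shift was uneven between subunits of 1 complex. Of the 87 members, 28 were over 1.5 times the median of the other lines in GS9, and 18 were under it. Ndufa12 was at 717 FPKM in GS9, 533 in AN6 and 201 to 333 in the other 14 lines. Cox6b1 was at 631 FPKM in GS9 and 283 to 395 elsewhere, and Atp5h, a peripheral stalk subunit, at 887 and 387 to 496. The epsilon subunit gene Atp5e was lowest in GS9, at 133 FPKM against 154 to 211 elsewhere, and Ndufa3 was at 156 FPKM against a median of 225 elsewhere. In GS4 only 7 members were over 1.5 times the median of the other lines and 6 were under it, so the shift there was smaller but shared by more members.

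Other measured properties moved with these lines. Members have short transcripts, with a median of 955 bases against 2979 over the tested genes. In GS9 the deviation of tested genes fell with transcript length at a Spearman's rho of -0.36, and in AN6 at -0.34, while in AN20 and AN9 it went with GC content at -0.55 and -0.51. Of the members, 18 have at least 1 further copy of their coding sequence elsewhere in mm9, and in GS9 their median deviation was 0.59, against 0.31 for the 69 without a copy. Atp5h is among the 18, with 4 copies at up to 99.0% identity. The FPKM sum without short non-coding RNA genes in GS9 was 1.28 times the geometric mean over the lines. As a share of that sum the members took 2.85% in GS9 and 2.93% in GS4, against 2.40% (AN20) to 2.79% (AN6) in the other lines. The part of these properties, and of the low fibroblast marker sums of GS4 and GS9, in the member levels was not tested.

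**Figure D4:**
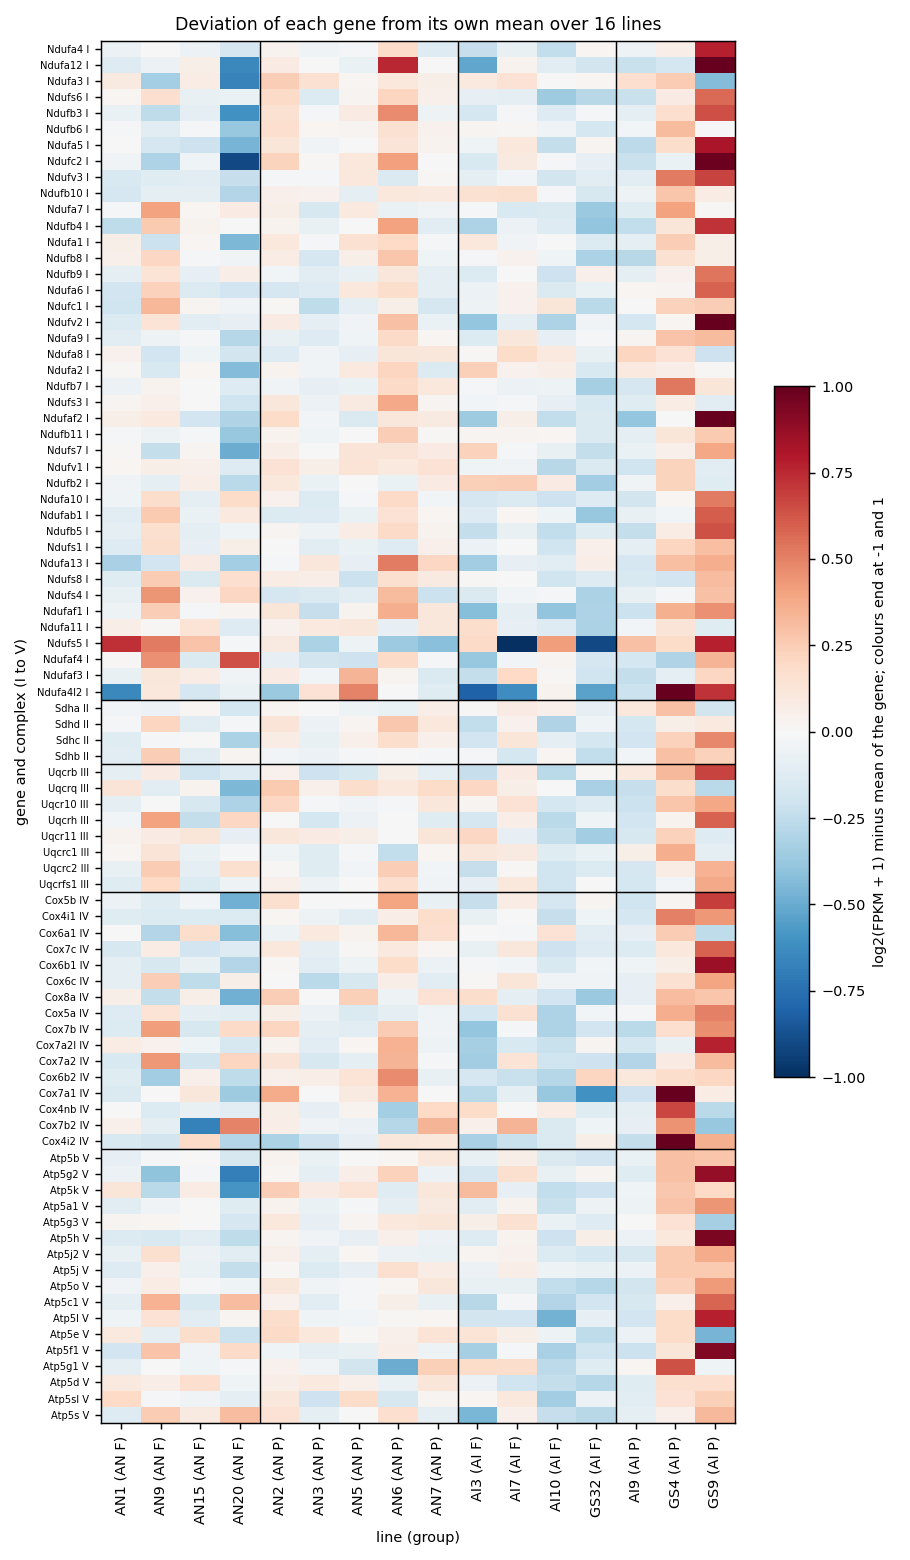
Deviation of tested genes (rows, by complex and falling mean) from their own mean in each line (columns, by group), as log2(FPKM + 1). Red in most rows marks GS9 and GS4, the 2 lines in which 71 and 78 of the 87 members were above their mean. Blue marks values below the mean, as in most rows of AI9, GS32, AI10 and AN20, where 12, 13, 16 and 21 members were above it. AN20 held the lowest value of 25 members.

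In the ntESC lines, F was set against P to ask whether the subunit genes differ with the outcome of tetraploid complementation. Of the 42 complex I genes 31 had a lower mean in AN F, by small amounts, and so did 12 of the 16 tested complex IV genes. The accessory subunit gene Ndufs5 had the smallest p of all members, with a higher mean in AN F. No member was called at an adjusted p under 0.05 (limma, Benjamini-Hochberg), and no gene at all was (0%). At an unadjusted p under 0.05, 1 of 87 members was higher, where 3.02% of all tested genes were, and 12 were lower, where 2.99% of all were. The median log2 difference of the members was -0.060, against -0.015 over all genes, and 61 were negative, where 53.8% of all genes were.

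Ndufs5 was at 14.6 (AN1), 12.4 (AN9), 10.4 (AN15) and 8.2 (AN20) FPKM in AN F and at 9.0, 6.5, 8.0, 6.3 and 6.0 FPKM in AN P. AN20 lay inside the AN P range and the other AN F lines above it. The log2 difference was 0.59 ± 0.17 (SE) with an unadjusted p of 0.0057 and an adjusted p of 0.64 (limma), and the exact permutation p was 0.032. Its coding sequence has 1 copy elsewhere in mm9 at 99.4% identity.

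Of the 12 members lower in AN F, 7 belong to complex I, which holds 42 of the 87 tested members. These 7 were Ndufb10, Ndufa5, Ndufb3, Ndufc2, Ndufa13, Ndufb6 and Ndufs7. The others were Uqcr10 and Uqcrq of complex III, Cox6b2 of complex IV, and Atp5h and Atp5g2 of complex V. Ndufc2, an accessory subunit of the membrane arm, was at 140, 116, 139 and 76.0 FPKM in AN F and at 167, 144, 154, 190 and 144 FPKM in AN P, with no overlap. Its log2 difference was -0.47 ± 0.18 with an unadjusted p of 0.024, and without AN9 and AN20 it was -0.19. Ndufb3 was at 170, 149, 167 and 116 FPKM in AN F and 197, 176, 188, 246 and 172 in AN P, again without overlap, with a log2 difference of -0.38 ± 0.14. Ndufb10 was at 128, 134, 134 and 116 FPKM against 148, 147, 135, 154 and 153, with a log2 difference of -0.20 ± 0.069. AN20 was the lowest line for each of these 3 genes.

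Every AN F line was below every AN P line for 7 members, Ndufb10, Ndufb3, Ndufb6, Ndufc2, Ndufv1, Cox4i1 and Atp5h, and above for none. Over all tested genes this held for 0.713% below and 0.584% above. The exact permutation p of each of the 7 was 0.016, the smallest that 4 against 5 lines allow, which follows from the lack of overlap. Cox4i1, the main isoform of subunit 4, was at 483, 478, 479 and 479 FPKM in AN F and at 534, 508, 488, 552 and 596 FPKM in AN P, a log2 difference of -0.15 ± 0.071. Atp5h was at 419, 416, 426 and 387 FPKM against 470, 451, 437, 477 and 444, a log2 difference of -0.15 ± 0.061. The adjusted p of each was 0.64 (limma). As given above, Atp5h has 4 copies of its coding sequence elsewhere in mm9.

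By complex, the median difference in AN was -0.080 for complex I (31 of 42 negative), -0.065 for complex II (3 of 4), -0.025 for complex III (5 of 8), -0.099 for complex IV (12 of 16 tested) and -0.045 for complex V (10 of 17). Of all tested genes 53.8% were negative. At an unadjusted p under 0.05, 3 members were lower without AN20 (0.872% of all genes), 6 without AN9 (1.3%), 6 without AN2 (2.38%), 6 without AN6 (1.93%) and 1 without AN9 and AN20 (0.478%). With the length and GC trend of each line removed the median was -0.015 with 4 lower (2.46%) and 5 higher (2.68%). Fibroblast markers were negative in 11 of 14, with summed levels of 863 to 1608 FPKM in AN F and 1092 to 2120 FPKM in AN P. Markers of adipocyte progenitors and of primitive endoderm were negative in 4 of 4 tested genes each (medians -0.22 and -0.23). Germ cell markers were positive in 4 of 4 (median 0.35) and markers of pluripotent cells in 8 of 11 (median 0.11). Heart and muscle markers were positive in 2 of 3 (median 0.11).

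In the iPSC lines the subunit genes had lower values in AI F than in AI P for nearly all members, but the AI P lines differed among themselves by more than the groups. No member and no gene was called at an adjusted p under 0.05 (0%, limma). At an unadjusted p under 0.05 no member was higher, where 3.47% of all genes were, and 5 were lower, where 4.3% of all were. The median log2 difference was -0.25, against -0.040 over all genes, and 79 of 87 members were negative, where 56.3% of all genes were. The medians were -0.24, -0.20, -0.14, -0.28 and -0.27 for complexes I to V.

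The 5 members were Ndufaf1, an assembly factor of complex I, Ndufa4l2, Uqcrb, the accessory subunit Ndufv3 and Atp5d. Ndufa4l2 was at 0.763, 1.01, 2.15 and 1.13 FPKM in AI F and at 1.66 (AI9), 11.8 (GS4) and 4.10 (GS9) FPKM in AI P. AI9 lay inside the AI F range. The log2 difference was -1.34 ± 0.50 with an unadjusted p of 0.029 and an adjusted p of 0.52 (limma), and the exact permutation p was 0.11. Its exons overlap Shmt2 on the opposite strand, and the study's methods do not state whether the libraries keep strand.

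Uqcrb was the only member for which every AI F line was below every AI P line, where 3.19% of all genes were below in this way and 1.69% above. It was at 440, 548, 428 and 522 FPKM in AI F and 554 (AI9), 648 (GS4) and 825 (GS9) in AI P. The gap between AI7 at 548 FPKM and AI9 at 554 FPKM was small. The coding sequence of Uqcrb has 3 copies elsewhere in mm9 at up to 98.2% identity. Its exons overlap Gm10767 on the opposite strand. The log2 difference was -0.47 ± 0.18 with an unadjusted p of 0.032 (limma). The exact permutation p was 0.057, the smallest that 4 against 3 lines allow, which follows from the lack of overlap. Ndufaf1 was at 10.1, 13.0, 10.4 and 11.1 FPKM in AI F and 11.9 (AI9), 18.1 (GS4) and 19.5 (GS9) in AI P, a log2 difference of -0.50 ± 0.18, with AI9 inside the AI F range. The members with the smallest p among those higher in AI F, Uqcrq, Atp5e and Atp5g3, had log2 differences of 0.092 ± 0.17, 0.086 ± 0.18 and 0.064 ± 0.15.

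The AI difference rested on GS4 and GS9. Without both, the median of the members was 0.029 and 35 of 87 were negative, where 50.7% of all genes were. This left AI9 as the only AI P line, assumed to vary like the other lines. In that fit the differences of the 5 members were -0.27 for Ndufa4l2, -0.20 for Uqcrb, -0.089 for Ndufaf1, -0.075 for Atp5d and 0.014 for Ndufv3. Without GS9 alone the median was -0.12 with 0 lower at an unadjusted p under 0.05 (1.69% of all genes), and without GS4 it was -0.22 with 0 lower (2.49%). Without AI9 it was -0.37 with 38 lower, where 13.4% of all genes were lower and 11.5% higher. With the FPKM divided by their sum without short non-coding RNA genes the median of the members was -0.073 and that of all genes 0.10. With the length and GC trend removed the median was -0.085. GS4 and GS9 were both derived earlier and AI9 newly, and with derivation as a term 0 members were lower (1.31% of all genes) and the median was -0.18.

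Lists of other mitochondrial genes and of ribosomal protein genes were also mostly negative in AI, where 56.3% of all tested genes were. Mitochondrial ribosomal protein genes were negative in 73 of 76 (median -0.25), cytoplasmic ribosomal protein genes in 75 of 82 (median -0.25), TCA cycle genes in 13 of 14 (median -0.17) and assembly factors of the complexes, a list that holds 4 of the members, in 23 of 30 (median -0.19). At an unadjusted p under 0.05, 5, 3, 1 and 4 of them were lower and 0 higher. Without GS4 and GS9 the 4 medians in AI were 0.0029, 0.021, -0.029 and -0.0083. In AN the 4 medians were -0.026, 0.034, 0.024 and -0.033. Both cytochrome c genes, Cycs and Cyct, were negative in AI and positive in AN, with medians of -0.72 and 0.13, and without GS4 and GS9 the AI median was -0.014. Of 11 tested regulators of mitochondrial genes, 8 were negative in AI, 3 without GS4 and GS9, and 10 were positive in AN. Fibroblast markers were positive in AI in 14 of 14, with a median of 0.84 and summed levels of 1126 to 2164 FPKM in AI F and 509 (GS4), 627 (GS9) and 1859 (AI9) in AI P, and 9 of 11 markers of pluripotent cells were negative. Markers of adipocyte progenitors and of primitive endoderm were positive in 4 of 4 tested genes each (medians 0.36 and 0.31) and heart and muscle markers in 2 of 3 (median 0.25). Germ cell markers were negative in 4 of 4 (median -0.34). Without GS4 and GS9, adipocyte progenitor markers stayed positive in 4 of 4 (median 0.33). Primitive endoderm markers were then positive in 3 of 4 (median 0.19) and heart and muscle markers in 2 of 3 (median 0.13). Without GS4 and GS9 the median of the fibroblast markers was 0.0035, with 7 of 14 positive, and 6 of 11 markers of pluripotent cells were negative. In bulk cultures fewer cells of a type and less RNA per cell cannot be told apart.

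**Figure D5:**
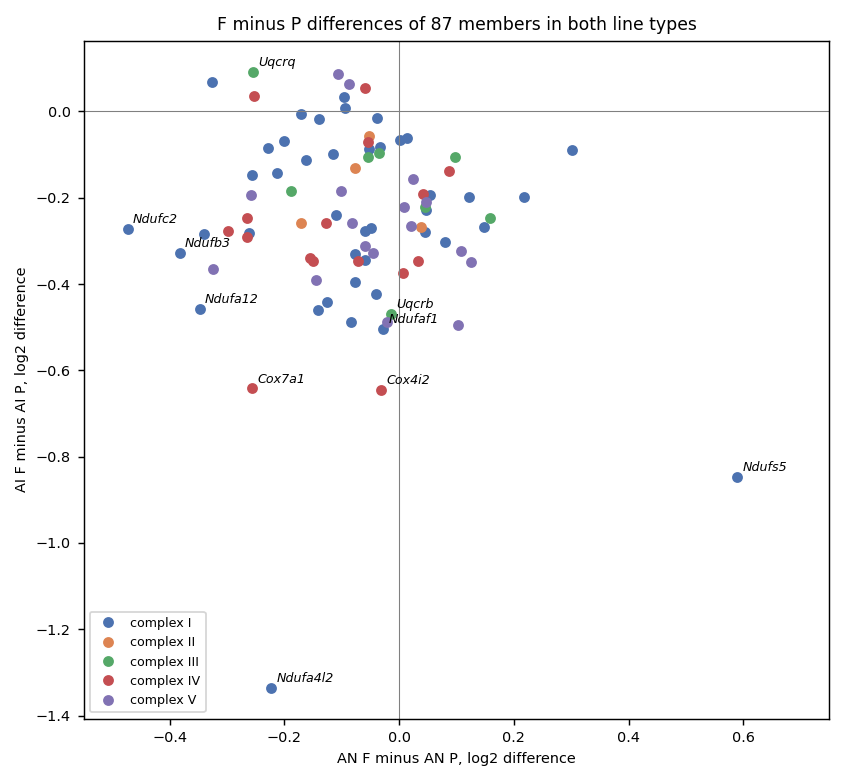
Log2 difference of each of the 87 tested members between F and P lines in AN (x axis) and in AI (y axis), coloured by complex. Most points lie below 0 on the y axis, where 79 of 87 are negative, against 56.3% of all tested genes. Ndufs5 lies apart with 0.59 in AN and -0.85 in AI.

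The comparisons in AN and AI share no lines. Of the 87 members, 53 were negative in both, 0 positive in both and 34 of opposite sign, and no member had fully separated groups in both. The shares of all genes with these sign patterns were not calculated. In each comparison alone, 53.8% (AN) and 56.3% (AI) of all genes were negative. In the test of the difference between the 2 effects, no member and no gene was called at an adjusted p under 0.05 (0%, limma). At an unadjusted p under 0.05 no member was higher, where 8.3% of all genes were, and 11 were lower, where 8.34% of all were. They were Ndufs5, Ndufa7, Ndufaf1, Ndufa4l2, Sdhb, Uqcrb, Cox5a, Atp5d, Atp5f1, Atp5s and Atp5c1. Without GS4 and GS9 none of the 87 was lower (0.925% of all genes) and 1 was higher (1.3%), and the median of the members went from -0.19 to 0.093.

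Ndufs5 had the smallest p of them. In AI it was at 9.7 (AI3), 2.5 (AI7), 11.5 (AI10) and 4.0 (GS32) FPKM in AI F and 10.5 (AI9), 9.6 (GS4) and 15.1 (GS9) FPKM in AI P, so that AI7 and GS32 were the lowest of all lines. The effect in AI was lower than that in AN by a log2 difference of -1.44 ± 0.46, with an unadjusted p of 0.0071 and an adjusted p of 0.29 (limma). Without GS4 and GS9 it was -1.31 with an unadjusted p of 0.053. Ndufa7, an accessory subunit, had a difference of -0.42 ± 0.18 and Uqcrb of -0.45 ± 0.18. The smallest p among positive differences belonged to Uqcrq (0.35 ± 0.20), Ndufa3 (0.40 ± 0.24) and Cox6a1 (0.29 ± 0.20). Without AI9 5 members, Atp5l, Atp5o, Ndufa4l2, Ndufaf1 and Ndufv3, passed an adjusted p of 0.05, among 651 genes in all. The coding sequence of Atp5l has 8 copies elsewhere in mm9 at up to 100% identity, and that of Atp5o has 1.

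Between ntESC and iPSC lines, the comparison the labels themselves give, the members differed little. At an adjusted p under 0.05 no member and no gene was called (0%, limma). At an unadjusted p under 0.05 no member was higher in AN, where 2.16% of all genes were, and 4 were lower, where 1.36% of all were. No member had all AN lines above or below all AI lines, which held for 0.0152% and 0.00758% of all genes. The median log2 difference, AN minus AI, was -0.049, against 0.0040 over all genes.

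The 4 members were Uqcrb (-0.21 ± 0.091), Ndufv3 (-0.21 ± 0.093), Atp5g2 (-0.30 ± 0.13) and Ndufa9 (-0.15 ± 0.070), each with an adjusted p of 0.999 (limma). For Ndufv3 the 9 AN lines were at 124 to 156 FPKM with a median of 135, 5 AI lines were at 128 to 142 FPKM, and GS4 and GS9 were at 208 and 232 FPKM. On the positive side the smallest p belonged to Atp5d (0.13 ± 0.062), Ndufv1 (0.13 ± 0.066) and Sdhd (0.13 ± 0.076). With the newly derived AI lines only, AI3, AI7, AI9 and AI10, the median of the members was 0.079, with 14 higher (4.13% of all genes) and 1 lower (2.24%) at an unadjusted p under 0.05. Without GS4 and GS9 it was 0.086, with 15 higher (4.51%) and 1 lower (2.96%). Without GS9 alone it was 0.0033, with 4 higher (3.84%) and 2 lower (2.18%), and without AI9 it was -0.097, with 0 higher (2.89%) and 18 lower (4.4%). The sign of the median thus changed when GS4 and GS9 were left out. Without GS32 alone, which was also derived earlier, the median was -0.058, and without GS4 alone it was -0.026.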

How the data were processed

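FPKM were used as deposited, with 1 row per gene symbol and 1 column per line. The authors mapped single-end reads of 50 nt to mm9 with TopHat 2.1.0 and calculated FPKM with Cufflinks 2.2.1, and the submitters' processing notes also name HTSeq. Per the study's methods Cufflinks was given a GTF file for mm9. The source of that file and the library normalization are not given in the sources used here. FPKM are not counts, so no count model was used. The authors' Cuffdiff test needs reads, and limma 3.58.1 in R 4.3.3 was run in its place on log2(FPKM + 1). Genes entered if their FPKM averaged 0.5 or more over the lines (13185 genes), the prior variance followed a trend with level, and p-values were adjusted over all genes entered by Benjamini-Hochberg. AN F and AN P were fitted on the 9 AN lines, AI F and AI P on the 7 AI lines, and the other comparisons on all 16 lines. A pseudocount of 1 understates changes of genes under a few FPKM.

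Exact permutation tests were two-sided (Python 3.11.15, scipy 1.17.1). Copies of coding sequences (GENCODE vM1) were searched in mm9 with BLAST 2.17.0 at an identity of at least 95% over at least 90% of the sequence. The fits were tested on simulated data with 200 changed genes, counted at an adjusted p under 0.05 (limma). At a log2 change of 0.5, 0 were recovered in AN F minus AN P, AI F minus AI P and the difference of the effects. In AN minus AI 134 were. At a log2 change of 1, 169, 149, 118 and 187 were recovered in the same order. A lack of calls thus leaves small differences between F and P lines undecided. Larger differences also stay undecided for genes that vary more between lines. In AI, Ndufa4l2 had a log2 difference of -1.34 ± 0.50 and an adjusted p of 0.52 (limma). Depth as a number of reads is unknown, so no counting error is given.

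The members and gene lists were chosen with earlier results of these data known. Named members are the highest and lowest of each complex by mean FPKM, the 3 with the smallest p in each direction of each comparison, those with separated groups, the 5 with the largest SD, isoform families and the Sdh genes. Others (such as Ndufa9 or Ndufs8) were chosen after their values were seen. Of the members, 1 enters the counts and medians but is not named here. The alternatives were other pseudocounts, filters, scalings and fits, passage or derivation as a term, and leaving out lines. Removal of the length and GC trend and leaving out GS4 with GS9 or AN9 with AN20 were chosen after seeing the data.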

Additional observations from a re-analysis of the deposited data

Results flagged for a closer look

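In groups of 4 or 5 lines a single line lay far from the others, by Dixon's criterion, for 6 of 135 sets of values examined, and chance alone gives about 1 in 20. The AI P group, with 3 lines, was not examined in this way. The AN P line AN6 accounted for 3 of the 6. The complex I accessory subunit genes Ndufa12 and Ndufs4 were at 533 and 34.6 FPKM in AN6, against 301 to 333 and 23.6 to 25.5 FPKM in the other AN P lines. Cox7a2l, a factor of respiratory supercomplexes, was at 160 FPKM in AN6, against 116 to 128 FPKM. AN6 is also the AN line in which deviations fell most with transcript length, at a Spearman's rho of -0.34, whose part in these values was not tested.

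In AN F, Atp5g3 was at 417 FPKM in AN20 and at 471 to 478 FPKM in the other lines, and Cox4i1 was at 483 FPKM in AN1, against 478 to 479 FPKM, a gap that is small in absolute size. In AI F, Cox6b1 was at 313 FPKM in AI10 and at 341 to 345 FPKM in the other lines.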

How the results depend on the processing

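No paired analysis was possible because the labels give no replicate numbers, litters or batches that pair lines. FPKM hold no read counts, so the depth limits the genes under 5 FPKM in a way that cannot be given as an interval.

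For AN F minus AN P the median of the members, -0.060 in the report, was negative under every alternative, at -0.015 with the length and GC trend removed and from -0.10 to -0.041 when 1 line was left out. In this section, percentages in brackets are the shares of all tested genes in the same fit and direction. The number of members lower at an unadjusted p under 0.05 was 12 in the report (2.99%). It was 7 with the sum without short non-coding RNA genes (2.03%) and 7 with passage as a term (2.49%). It was 6 in the fit of all 16 lines (2.29%) and 4 with the length and GC trend removed (2.46%). Without AN9 and AN20 it was 1 (0.478%). With 1 line left out it ran from 3 (0.872%, without AN20) to 17 (4.87%, without AN15). The number higher was 1 in the report (3.02%), 0 in the fit of all 16 lines (3.96%) and 5 with the trend removed (2.68%). With 1 line left out it was 1 to 3, with 3 without AN15 (7.03%) and 2 without AN6 (1.76%).

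For AI F minus AI P the median of -0.25 was -0.098 with quantile normalization, -0.073 with the sum without short non-coding RNA genes, -0.085 with the trend removed, 0.029 without GS4 and GS9, and -0.37 to -0.12 with 1 line left out. The number lower was 5 in the report (4.3%), 3 at a minimum mean of 5 FPKM (3.73%) and 8 with no filter (4.09%). It was 3 with passage as a term (3.24%), 25 in the fit of all 16 lines (9%) and 0 with derivation as a term (1.31%). With 1 line left out it was 0 without GS4 (2.49%) or GS9 (1.69%) and 38 without AI9 (13.4%). It was 1 without AI3 (1.85%), 2 without AI10 (2.04%) and 2 without GS32 (2.25%).

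For AN minus AI the median of -0.049 was -0.010 with the sum without short non-coding RNA genes, -0.018 with no F and P term, -0.020 with quantile normalization, -0.026 with passage as a term, -0.026 without AN9 and AN20, 0.079 with newly derived AI lines, 0.086 without GS4 and GS9, and -0.097 to 0.0033 with 1 line left out. The number higher was 0 in the report (2.16%), 2 with no filter (1.95%), 2 with median-ratio scaling (2.17%) and 3 with quantile normalization (1.9%). With the sum without short non-coding RNA genes it was 4 (3.78%). It was 1 with passage as a term (1.92%) and 1 with no F and P term (1.96%). It was 1 with the trend removed (2.47%) and 1 without AN9 and AN20 (2.41%). The number higher was 14 with newly derived AI lines (4.13%) and 15 without GS4 and GS9 (4.51%). With 1 line left out the number higher was 0 to 4, with 4 without GS4 (2.5%) or GS9 (3.84%). The number lower was 4 in the report (1.36%), 0 with passage as a term (1.27%) and 0 with no F and P term (0.849%). Without AN9 and AN20 it was 2 (0.842%). With 1 line left out it was 0 without AN20 (0.994%), AN3 (1.17%) or AI7 (1.36%). It was 1 without AN1 (1.72%), AN2 (1.13%), AN5 (1.18%) or GS32 (1.16%). It was 2 without AN7 (1.31%) or GS9 (2.18%) and 18 without AI9 (4.4%).

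For the difference of the effects the median of -0.19 was -0.084 with the trend removed, -0.029 with quantile normalization, -0.042 with the sum without short non-coding RNA genes, 0.093 without GS4 and GS9, and -0.32 to -0.071 with 1 line left out. The number lower was 11 in the report (8.34%) and 7 with quantile normalization (7.71%). It was 6 with the sum without short non-coding RNA genes (3.48%) and 2 without AN9 and AN20 (1.48%). With 1 line left out it ran from 2 without AN9 (4.05%) to 35 without AI9 (16.2%). It was 3 to 6 without AN20, AN3, AN5, AN7, AI3, AI10, GS32, GS4 or GS9 (from 4.15% without AN20 to 8.24% without AN7). The number higher was 0 in the report (8.3%), 1 with quantile normalization (8.56%), 1 with that sum (11%) and 1 with the trend removed (8.53%). With 1 line left out it was 0 to 1, with 1 without GS32 (6.37%), GS4 (5.64%) or GS9 (4.5%). Members called at an adjusted p under 0.05 numbered 0 to 5 with 1 line left out, 5 without AI9 and 0 under every other alternative of every comparison.

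Single members changed sign in 6 cases, Ndufaf4 in AN (-0.0069 without AN9 and AN20), Ndufv1 in AN (0.014 with the trend removed), Atp5e and Atp5g3 in AI (-0.091 and -0.070 without GS9) and Ndufv3 in AN minus AI (0.028 with newly derived AI lines and 0.028 without GS4 and GS9). In 588 of the other cases the sign and the side of the threshold were as reported, in 115 an unadjusted p under 0.05 was lost and in 39 one was gained. The cause was not tested.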
